A study of Tupaia belangeri with 15 samples.

Results

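The genes described here are 9 channel and exchanger genes of the photoreceptor membrane, chosen by symbol out of 83605 features in the tree shrew (TS) annotation: CNGA1 (TSDBGID.15182), CNGA3 (TSDBGID.2577), CNGB1 (TSDBGID.15532), CNGB3 (TSDBGID.8191), HCN2 (TSDBGID.26725), HCN3 (TSDBGID.25495), HCN4 (TSDBGID.16463), SLC24A1 (TSDBGID.22237) and SLC24A2 (TSDBGID.13416). All 9 were listed in the files. They were followed in single-nucleus RNA libraries of 15 TS retinas at the infancy, mature and senile stages, 5 retinas each. Ages in months ran from 85.8 to 86.56 at the senile stage, from 24.96 to 36.0 at the mature stage and from 1.4 to 2.1 in infancy, and the labels tie no age to a single retina. No animal was treated or carried a named allele. Senile animals came from another institute than the younger ones, so stage and source cannot be told apart in any comparison with the senile stage.

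Cyclic nucleotide-gated (CNG) channels carry the dark current of photoreceptors, and they close when light lowers cyclic GMP. The rod channel is built from CNGA1 and CNGB1 and the cone channel from CNGA3 and CNGB3. Calcium that enters through these channels is extruded by potassium-dependent sodium/calcium exchangers, of which SLC24A1 (NCKX1) is known from rods and SLC24A2 (NCKX2) from cones and other neurons. Hyperpolarization-activated HCN channels shape the voltage response after the outer segment, and their opening at negative voltages shortens the light response. The TS retina is dominated by cones.

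Unique molecular identifiers (UMIs) were summed by class and retina, and a level is the sum of a gene scaled to 1000000 UMIs of that class and retina (CPM). Levels of different genes were not compared, since transcript lengths were not used here. Classes are clusters named from fixed marker genes, and the members took no part in clustering or naming. Of 111825 nuclei kept, 80281 were named, among them 14756 cones, 998 rods, 24085 bipolar cells (BCs), 1399 horizontal cells (HCs), 26165 amacrine cells (ACs), 5223 retinal ganglion cells (RGCs), 5967 Müller cells, 1159 astrocytes and 529 microglia. All 7 cone markers were highest in cones, and the 6 rod markers described here were highest in rods. So were 6 of 8 BC, 6 of 9 AC and 6 of 8 RGC markers in their own class, and all markers of the other 4 classes. Senile 1 held 3 rod nuclei and was left out of every rod level and test, which leaves 14 retinas, but these nuclei count in the rod total and in the shares of nuclei with a UMI. The libraries held 13429873 to 58734300 UMIs, and the class sums were 1010547 to 8445482 UMIs per retina in cones against 66434 to 470423 in rods. The rod values therefore rest on far fewer UMIs than the cone values. Pairs of libraries shared 4 to 30 barcodes.

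The pore-forming subunit genes CNGA1 and CNGA3, and CNGB3, the modulatory subunit of the cone channel, were listed with 0 UMIs in all classes and all 15 retinas, and 3 UMIs over all retinas would have been 0.0497 CPM in cones and 1.13 CPM in rods. A listed 0 is the count under this annotation, and absence of RNA is not read from it. CNGB1, the modulatory subunit of the rod channel, had 44 UMIs in all kept nuclei. They gave 4.18 ± 5.30 CPM in rods (SD, n = 14 retinas) from 10 UMIs, and 0.451 ± 0.581 CPM in cones (SD, n = 15) from 24 UMIs, with 0 UMIs in the other 7 classes.

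The annotation also lists a numbered copy of this gene, CNGB1li1 (TSDBGID.15848), which held 5209 UMIs. It was taken up after these counts had been seen, and reads could be split between such copies. The level of CNGB1li1 in rods ran from 284 to 740 CPM with a median of 469 (mean 497 ± 116, SD, n = 14). In cones it ran from 28.6 to 53.4 CPM with a median of 40.7 (mean 40.1 ± 6.49, SD, n = 15). The lowest rod value thus lay above the highest cone value, and no other class exceeded a mean of 4.83 CPM. The cone level was 8.07% of the rod level, and 6 rod markers were found in cones at 0.183% to 6.32% of their rod level (median 0.630%). The highest of these was SAG, which the study also counts among the markers of a cone subtype. Whether rod RNA contributes to the cone level of CNGB1li1 was not tested.

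Antisense features of CNGA3 and CNGB3, which were at 0, and of CNGB1 had UMIs. These were chosen after their values were seen, and whether counting kept the strands apart is not given in the sources used here. CNGA3-AS-1 had 988 UMIs in cones (15.5 ± 9.09 CPM, SD, n = 15, from 3.59 to 33.3) and 0 in rods. CNGB3-AS-2 had 8075 UMIs in cones, a mean of 128 CPM, against 7.62 CPM in ACs and 0.578 CPM in rods. CNGB1-AS-1 stood at 107 CPM in rods and 10.8 CPM in cones. The antisense features of the cone channel genes were thus highest in cones, and that of CNGB1 was highest in rods.

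**Figure D1:**
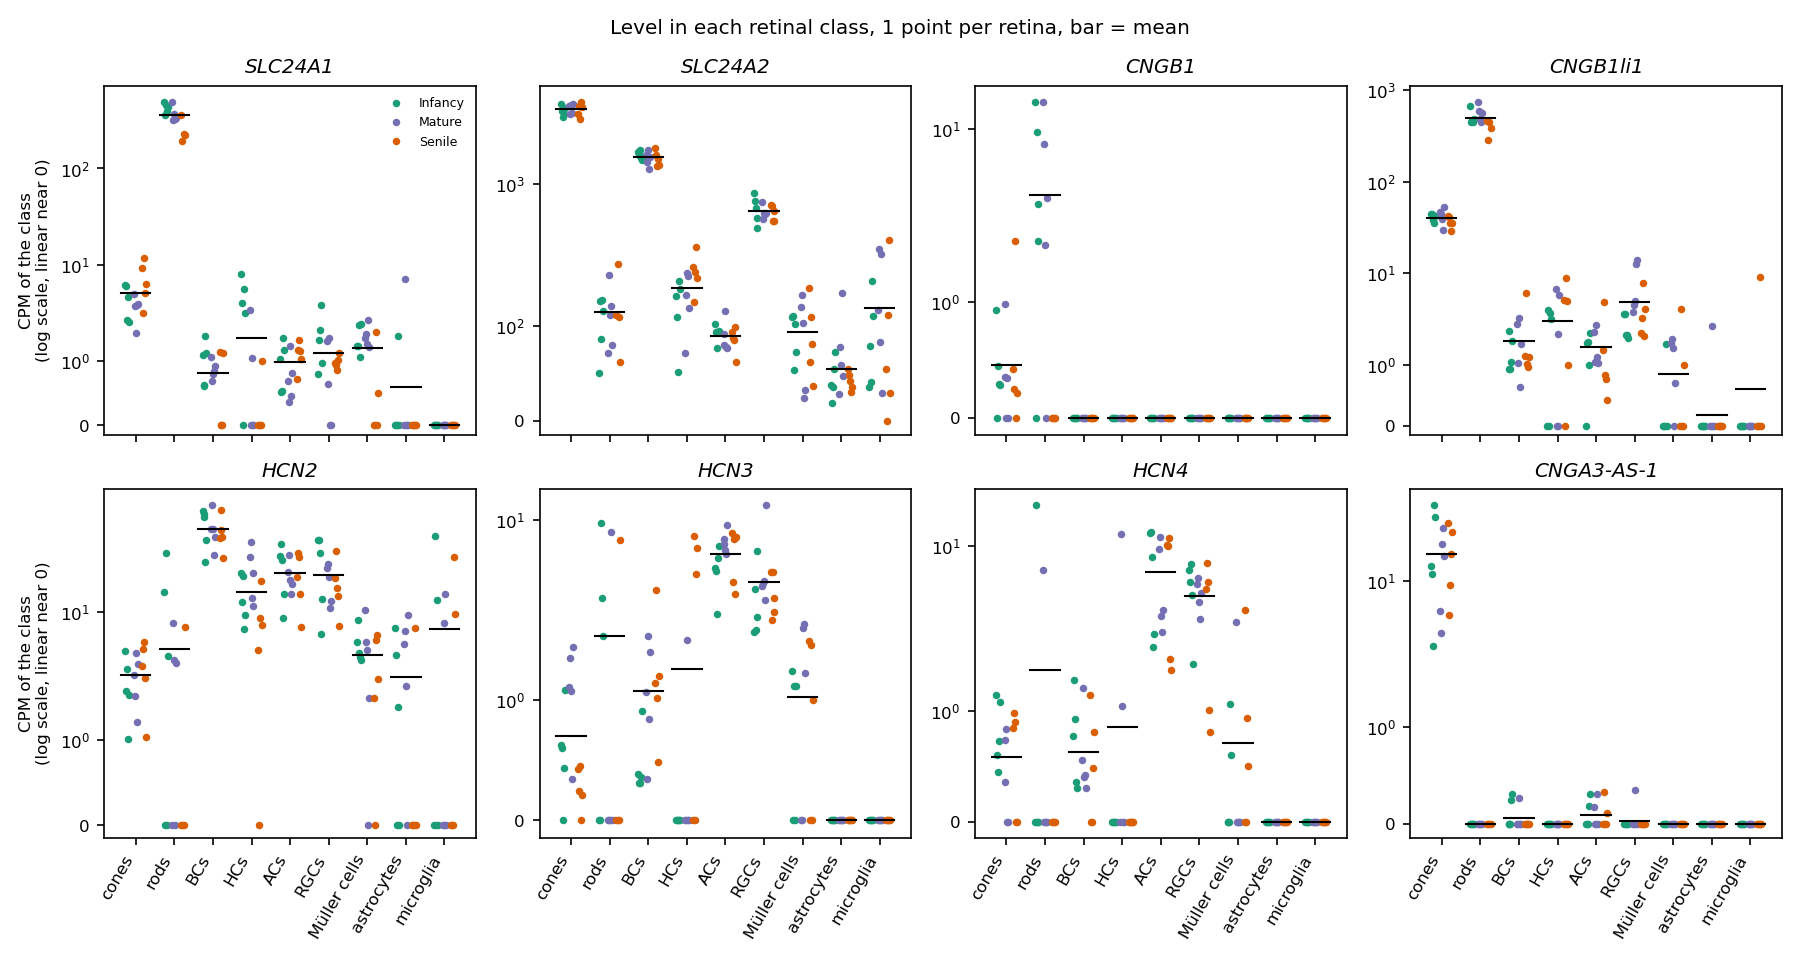
Level of each member with a UMI, of the copy CNGB1li1 and of the antisense feature CNGA3-AS-1 in 9 retinal classes; the y axis is CPM of the class on a log scale that turns linear near 0, each point is 1 retina coloured by stage, and each bar is the mean over retinas. SLC24A1 stands at 194 to 489 CPM in rods and at most 11.7 CPM in cones, while SLC24A2 stands at 2861 to 3775 CPM in cones.

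SLC24A1, the exchanger known from rods, was highest in rods. Its level in rods ran from 194 to 489 CPM with a median of 362 (mean 356 ± 93.9, SD, n = 14). In cones it ran from 1.96 to 11.7 CPM with a median of 4.65 (mean 5.08 ± 2.62, SD, n = 15). No retina overlapped between the classes, and every remaining class had a mean of at most 1.75 CPM, with 0 UMIs in microglia. Rods made up 998 of the named nuclei and still held 58.0% of all SLC24A1 UMIs, against 17.4% in cones.

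At least 1 UMI of SLC24A1 was found in 55.8% of rod nuclei and 1.87% of cone nuclei, with medians of 2096 and 3090 UMIs per nucleus. ACs, taken as neurons outside the photoreceptor layer, had 0.378% at a median of 2968 UMIs. Thinned to 1000 UMIs, which leaves out shallower nuclei (100 rods, 402 cones and 730 ACs), the shares were 31.2% in rods, 0.469% in cones and 0.0923% in ACs. The cone share was thus above the AC share by both measures. The cone level was 1.43% of the rod level. Of the 6 rod markers SAG stood in cones at 6.32% of its rod level, and the others at 0.183% to 2.21%. Whether rod RNA contributes to the cone level of SLC24A1 was not tested. In non-photoreceptor classes SLC24A1 stood at a median of 0.279% of its rod level, within the 0.0721% to 0.918% of 6 rod markers.

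SLC24A2, the exchanger known from cones, was highest in cones, where it ran from 2861 to 3775 CPM with a median of 3411 (mean 3340 ± 280, SD, n = 15). BCs followed with 1267 to 1787 CPM and a median of 1535 (mean 1542 ± 154). RGCs came next with 490 to 864 CPM and a median of 624 (mean 645 ± 98.2). These ranges did not overlap. HCs had 185 ± 77.8 CPM and rods 126 ± 61.9 CPM, with microglia, Müller cells, ACs and astrocytes at means between 54.1 and 133 CPM (SD, n = 15, or 14 for rods). Of HCs that were also gated nucleus by nucleus 69.1% got the same name, and the gated HCs had 218 CPM of SLC24A2. The larger HC cluster (942 nuclei) stood at 54.4 CPM and the other (457 nuclei) at 385 CPM, so the HC level depends on their mix.

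The order of the classes was tested between neighbours, within retinas, on the log2(CPM + 1) scale. By mean CPM other classes lay between some of the pairs tested. A 2-sided exact sign-flip test was used, with Benjamini-Hochberg adjustment over 72 pairs, of which 48 belong to members with a UMI, and the smallest p it can give with 15 retinas is 6.1e-05. For SLC24A2 the step from cones to BCs was 1.12 ± 0.17, that from BCs to RGCs 1.26 ± 0.17 and that from RGCs to HCs 1.93 ± 0.83 (log2, SD). Each had this sign in 15 of 15 retinas, with an adjusted exact p of 7.3e-04. HCs and rods did not differ beyond their spread (adjusted exact p = 0.20), nor did rods and ACs (adjusted exact p = 0.30).

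SLC24A2 was detected in 98.8% of cone nuclei, 71.6% of BC nuclei and 15.7% of rod nuclei, and in 94.9%, 62.0% and 7.64% after thinning to 1000 UMIs. The rod level was 3.79% of the cone level. Of the 7 cone markers 5 stood in rods at 0% to 3.51% of their cone level, PDE6H at 12.3% and GRK7 at 31.0%. Whether cone RNA contributes to the rod value of SLC24A2 was not tested.

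For SLC24A1 the step from rods to cones was 5.995 ± 0.84 on the log2(CPM + 1) scale, in 14 of 14 retinas (adjusted exact p = 0.0011), and cones exceeded Müller cells by 1.37 ± 0.98 in 15 of 15 (adjusted exact p = 7.3e-04). For CNGB1 the step from rods to cones, 1.14 ± 1.58, did not pass (adjusted exact p = 0.12). In all 11 of the 72 pairs passed. Of these, 2 set cones against a class with 0 UMIs in every retina (ACs for CNGB1, astrocytes for HCN3), where no difference can be negative, so they are not read as an order and 9 remain.

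HCN2, a widely used neuronal HCN subunit, was highest in BCs, at 24.7 to 68.6 CPM with a median of 44.1 (mean 44.8 ± 13.8, SD, n = 15). ACs had 20.2 ± 7.92 CPM and RGCs 19.6 ± 9.82 CPM. Photoreceptors stood low, at 3.25 ± 1.53 CPM in cones and 5.13 ± 8.10 CPM in rods. BCs exceeded ACs by 1.15 ± 0.25 (log2) in 15 of 15 retinas (adjusted exact p = 7.3e-04). HCs exceeded Müller cells by 1.38 ± 0.96 (adjusted exact p = 0.0011). HCN2 was detected in 9.13% of BC nuclei and 1.25% of cone nuclei, at medians of 1985 and 3090 UMIs, and in 12.6% of RGC nuclei at a median of 5221. Thinned to 1000 UMIs the shares were 4.22% in BCs, 2.39% in RGCs, 1.98% in ACs and 0.361% in cones. This left out as shallower 2497 BC, 2 RGC, 730 AC and 402 cone nuclei, so the classes were cut unequally.

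HCN3 and HCN4 each had their highest class mean in ACs, followed by RGCs. HCN3 had 1449 UMIs in all, 6.51 ± 1.80 CPM in ACs (3.02 to 9.44, median 6.84) and 4.50 ± 2.42 CPM in RGCs (2.38 to 12.1, median 4.14). The ranges overlapped, but ACs were higher within 13 of 15 retinas, by 0.50 ± 0.39 (log2, adjusted exact p = 0.0044). HCN4, known as the pacemaker subunit of the heart, had 1749 UMIs, 6.98 ± 4.12 CPM in ACs (1.78 to 12.1, median 8.53) and 4.99 ± 2.25 CPM in RGCs (0.815 to 7.92, median 5.46). These 2 classes did not differ beyond their spread (adjusted exact p = 0.13). With called doublets removed, 45.0% of the HCN4 UMIs lay in nuclei without a class name, against 37.3% in ACs. The HCN4 levels of the classes therefore cover the named nuclei only. RGCs exceeded BCs by 1.79 ± 0.82 in 15 of 15 retinas (adjusted exact p = 7.3e-04).

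The levels of HCN2, of HCN4 and, in some classes, of SLC24A2 moved with the Cell Ranger version in the labels, which is 5.0.1 for Senile 1 and 2, Mature 1 and 2 and Infancy 1 to 3, and 7.0.1 for the other 8 libraries. HCN2 in BCs was 55.7 ± 10.8 CPM in the 7 former (38.3 to 68.6) and 35.3 ± 7.82 CPM in the 8 latter (24.7 to 44.4). HCN2 in RGCs was 28.1 ± 7.07 and 12.2 ± 3.95 CPM. HCN4 in ACs was 10.5 ± 1.32 CPM (8.53 to 12.1) and 3.90 ± 3.04 CPM (1.78 to 11.2). In RGCs HCN4 was 6.66 ± 0.95 CPM (5.46 to 7.92) and 3.53 ± 2.02 CPM (0.815 to 6.04). ACs and RGCs thus did not overlap in HCN4 in the libraries labelled 5.0.1, and overlapped in those labelled 7.0.1. SLC24A2 was 3295 ± 262 and 3379 ± 307 CPM in cones, but 139 ± 68.6 and 225 ± 63.9 CPM in HCs and 119 ± 48.8 and 71.1 ± 36.0 CPM in Müller cells. CNGB1 in rods, on 10 UMIs in all, was 7.75 ± 6.49 CPM in 6 libraries labelled 5.0.1 and 1.51 ± 1.73 CPM in the 8 labelled 7.0.1. By the study's marking every library labelled 5.0.1 came from a female, and those labelled 7.0.1 came from both sexes. The part of the version in these levels was not tested apart from libraries, depth, sex or day, and the stage models below carry the version as a term.

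Within classes the members varied between clusters. SLC24A2 ran from 67.2 to 2727 CPM over 24 BC clusters, with a median of 1231. The lowest cluster held 1239 nuclei led by PTPRQ, RELN and NTNG1, and its 15 retinas lay between 28.7 and 149 CPM. The highest held 3859 nuclei led by PTPRQ, PDE1A and TSHR, at 2357 to 3182 CPM over 15 retinas, and it also had the highest HCN2 level of the BC clusters, 68.8 CPM. These SLC24A2 ranges over retinas did not overlap. The lowest HCN2 level of the BC clusters was 3.75 CPM, in 1327 nuclei led by KCNH7 and PRKCQ. Its 15 retinas lay between 0 and 16.7 CPM with a median of 0, so a high HCN2 level was not shared by all BC clusters.

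ACs were low in SLC24A2, with a median of 60.7 CPM over 51 clusters, apart from a cluster of 383 nuclei led by CCBE1, RIT2 and OPRM1 at 1419 CPM. That cluster had 923 to 1946 CPM in its 15 retinas. HCN4 ran from 0 to 50.6 CPM over the named AC clusters, highest in 462 nuclei led by BCL11B and ERBB4, whose 15 retinas lay between 15.6 and 164 CPM. Cluster 29, which got no class name, stood higher at 66.9 CPM (below).

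Rods and cones of the same retina were then compared with edgeR's quasi-likelihood test, with the retina as a block (14 retinas). Of 12702 features tested, 5684 passed an adjusted p of 0.05, which is 44.7%, with 17% higher and 27.7% lower in rods. Of the 9 members 4 passed the filter on low counts. SLC24A1 and CNGB1 were higher in rods, SLC24A2 was lower, and HCN2 did not pass. With 44.7% of all features called, a count of 3 among 4 is not a result about these genes as a group. The median log2 fold change of the 4 was 1.64, against -0.14 over all features.

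SLC24A1 was higher in rods by 5.99 on the log2 scale (SE 0.24, adjusted p = 3.9e-12, edgeR). SLC24A2 fell by 5.09 (SE 0.19, adjusted p = 6.3e-12, edgeR). Every one of the 14 retinas had more SLC24A1 and less SLC24A2 in rods than in cones, and the differences stood between 5.58 and 6.21 and between -5.29 and -4.23 in all alternatives run. CNGB1 was higher in rods by 2.99 (SE 0.76, adjusted p = 7.1e-04, edgeR), on 10 UMIs in rods, with more CPM in rods in 8 retinas and less in 4 of 14. The exact test of the same step did not pass (above). Its copy CNGB1li1 was higher by 3.32 (SE 0.09, adjusted p = 3.6e-45, edgeR). The difference of HCN2 was 0.28 (SE 0.53, adjusted p = 0.71, edgeR), at 5.13 CPM in rods and 3.25 CPM in cones. Antisense CNGA3-AS-1 was lower in rods, where it had no UMI in 14 retinas, and so was CNGB3-AS-2, with 3 UMIs in rods.

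**Figure D2:**
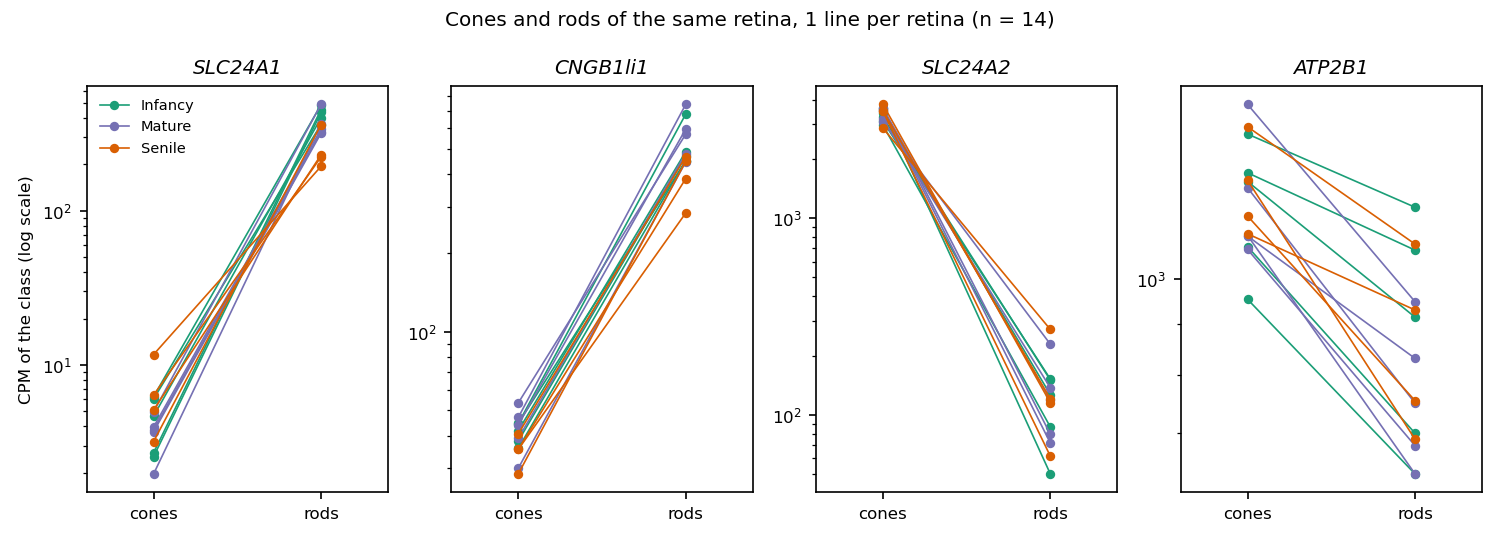
Levels in cones and rods of the same retina for SLC24A1, CNGB1li1, SLC24A2 and the calcium pump ATP2B1; the y axis is CPM of the class on a log scale, each line is 1 of 14 retinas, and colours mark the stage. SLC24A1 and CNGB1li1 rise from cones to rods in every retina, and SLC24A2 and ATP2B1 fall in every retina.

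Related channels, exchangers, pumps and partners were taken from a list of 18 genes, 17 of them found, and 8 passed the filter in this comparison. Of these, 4 were higher and 2 lower in rods, with a median of 0.63. SLC24A4, another exchanger of the family, was higher by 0.93 (adjusted p = 0.012, edgeR), although it stood at -0.54 when nuclei were gated one by one.

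SLC8A1, the sodium/calcium exchanger NCX1, was higher in rods by 2.08 (adjusted p = 0.0015, edgeR). Of its UMIs 53.1% lay in ACs, 0.520% in cones and 0.116% in rods, and whether AC RNA contributes to the rod value was not tested. The outer segment proteins PRPH2 and ROM1 were higher by 1.20 and 1.77. ATP2B1, a calcium pump of the plasma membrane, was 844 ± 179 CPM in rods (637 to 1180, median 793, SD, n = 14) and 1245 ± 207 CPM in cones (954 to 1765, median 1234, SD, n = 15). The ranges overlapped, and within retinas ATP2B1 was lower in rods by a log2 difference of -0.86 (SE 0.07, adjusted p = 7.4e-18, edgeR). PEX5L, which encodes the HCN accessory subunit TRIP8b, stood at -1.23 (adjusted p = 0.0015, edgeR). KCNV2, the modulatory partner of photoreceptor potassium channels, did not pass at 0.07. The summed list of RPE markers was also higher in rods than in cones (below), and its part in these differences was not tested.

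With DESeq2 in place of edgeR the median over all features moved from -0.14 to 0.02 in this comparison, and 53.8% of the called features were higher in rods, against 38.1% with edgeR. The corresponding shares for S-cones over L-cones were 62.8% and 27.4%, and for OFF over ON BCs 62.2% and 34.7%. SLC24A1 was then higher in rods by 6.18, SLC24A2 stood at -4.96 and ATP2B1 at -0.67, each still past the threshold.

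The cones were next divided into 13623 L-cones and 531 S-cones, with 602 nuclei in a cluster that met neither list. The S-cones were a single cluster with OPN1SW, VAV3 and PLXDC2, found with at least 10 nuclei in 13 retinas. Its leading gene was SAG, at 3006 CPM or 75.0% of the rod level. SAG is on the rod list used here, and the study also counts it among the S-cone markers. The summed rod list, SAG included, ran from 1913 to 4249 CPM in S-cones (median 2632, 13 retinas) and from 75.1 to 315 CPM in L-cones (median 173, 15 retinas). The other 5 rod markers with UMIs stood in S-cones at 0.315% to 2.51% of their rod level. Whether rod RNA contributes to the S-cone values was not tested.

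Against that background, SLC24A1 in S-cones ran from 0 to 54.9 CPM with a median of 24.1 (mean 26.0 ± 14.1, SD, n = 13), or 7.30% of its rod level. L-cones had 4.42 ± 2.75 CPM (SD, n = 15). SLC24A1 was above its L-cone level in the S-cones of 12 of 13 retinas, the exception being Senile 2 with 0 UMIs. SLC24A2 ran from 2051 to 2779 CPM in S-cones, with a median of 2484 (mean 2475 ± 218, SD, n = 13), and from 2985 to 3817 CPM in L-cones, with a median of 3445 (mean 3390 ± 270, SD, n = 15). These ranges did not overlap.

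In the paired test 2416 of 14604 features passed, 16.5%, with 4.53% higher and 12% lower in S-cones. Of 3 members tested, SLC24A1 was higher in S-cones by 2.50 (SE 0.29, adjusted p = 1.7e-16, edgeR) and SLC24A2 fell by 0.74 (SE 0.06, adjusted p = 4.8e-34, edgeR). HCN2 did not pass (adjusted p = 0.65, edgeR). The median of the 3 was -0.53, against -0.16 over all features. With DESeq2 SLC24A2 stood at -0.50 and SLC24A1 at 2.72, where the median over all features had moved from -0.16 to 0.05, and these values were not adjusted for that shift. CNGB1li1 did not differ beyond its spread, at -0.17.

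Of 8 related genes tested 2 were higher and 2 lower in S-cones, with a median of -0.23. PEX5L was 62.8 to 507 CPM in S-cones (median 186, 13 retinas) and 43.2 to 121 CPM in L-cones (median 74.0, 15 retinas), and it was higher by 1.06 (adjusted p = 7.5e-23, edgeR). SLC24A4 was higher by 1.02 (adjusted p = 0.015, edgeR), and the call was lost with DESeq2 (0.50), without Senile 1 (0.83) and without Senile 5 (-0.023). ATP2B1 and KCNV2 were lower, with log2 differences of -0.29 and -0.47, but neither call held with DESeq2 (-0.060 and -0.27), and the CPM of ATP2B1 was higher in S-cones in 7 of 13 retinas.

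**Figure D3:**
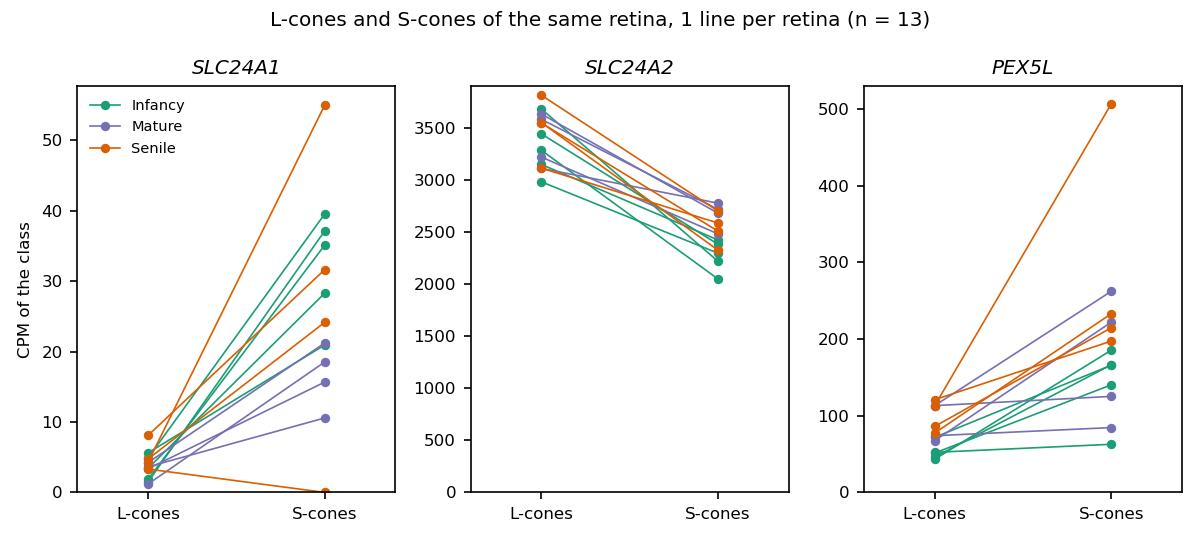
Levels in L-cones and S-cones of the same retina for the exchangers SLC24A1 and SLC24A2 and the HCN accessory subunit gene PEX5L; the y axis is CPM of the class from 0, each line is 1 of 13 retinas, and colours mark the stage. SLC24A2 is lower and PEX5L higher in S-cones in every retina, and SLC24A1 is higher in all but 1 senile retina.

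OFF and ON BCs, which hyperpolarize and depolarize to light, were separated less well. GRIK1, an OFF marker, had 31 UMIs and its copy GRIK1li1 1453603, and the fixed list named 149 OFF nuclei (121 of them in 8 retinas with at least 10) and 9747 ON nuclei. The OFF nuclei were 1 cluster, which held 177 nuclei before called doublets were removed, and 14189 of 24085 BC nuclei met neither list. The median was 3772 UMIs per nucleus in the OFF and 2113 in the ON nuclei. The part of depth or remaining doublets in the differences between them was not tested. SLC24A2 had means of 1992 CPM in the OFF (8 retinas) and 2244 CPM in the ON nuclei (15 retinas) against 1542 CPM in all BCs, so the comparison covers these clusters and not OFF and ON BCs in general. In 8 retinas 1532 of 10071 features passed, 15.2%, with 5.27% higher and 9.94% lower in OFF BCs. Of 2 members tested SLC24A2 fell by 0.41 in OFF BCs (SE 0.11, adjusted p = 0.0018, edgeR), with OFF BCs at 1737 to 2208 CPM (median 2010) and ON BCs of the same 8 retinas at 1887 to 2516 CPM (median 2197). The ranges overlapped, and OFF BCs were lower in 7 of 8. The call was lost with DESeq2 (-0.14, adjusted p = 0.39) and without the retina block (-0.20, adjusted p = 0.23). HCN2 did not pass, at -0.23. The median of both was -0.32, against -0.22 over all features.

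With GRIK1li1 in its place the OFF BCs were 8052 nuclei in 15 retinas. SLC24A2 had means of 1965 CPM in these and 2304 CPM in the ON nuclei, against 1601 CPM in all 28354 BCs. This comparison too covers the named clusters and not OFF and ON BCs in general. SLC24A2 then differed by -0.18 (adjusted p = 7.4e-06, edgeR), and HCN2 was higher in OFF BCs by 0.33 (adjusted p = 1.6e-04, edgeR), at 61.8 ± 19.1 against 50.4 ± 18.6 CPM (SD, n = 15). Of 7 related genes 2 were higher and 1 lower in OFF BCs with the fixed list, with a median of 0.10. PEX5L was higher by 1.49 (adjusted p = 1.1e-10, edgeR) and SLC8A1 by 1.48 (adjusted p = 2.3e-04, edgeR), while SLC24A4 stood at -1.96 (adjusted p = 1.0e-31, edgeR). With GRIK1li1 the differences of PEX5L and SLC8A1 were 0.44 and 0.49, where the OFF nuclei, the ON nuclei (9451) and the retinas (15 in place of 8) all differ, and their parts were not tested apart.

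The stages were compared in each class with edgeR, in a model with the labelled Cell Ranger version. Between senile and infant retinas 2.08% of the features tested passed in cones, 0.967% in rods, 1.46% in BCs, 0.369% in HCs, 1.23% in Müller cells, 1.21% in RGCs, 1.26% in ACs, 0.571% in microglia and 1.37% in astrocytes. Between mature and infant retinas the shares in the same order were 1.5%, 0.604%, 1.06%, 0.155%, 0.705%, 0.722%, 0.749%, 0.285% and 0.458%. Between senile and mature retinas they were 0.00675% in cones, 0.0604% in rods, 0.0989% in BCs, 0.0569% in Müller cells and 0.0327% in astrocytes, and 0% in the other 4 classes. The filter left 3 members to test in cones, 2 in rods, 2 in BCs, 1 in HCs, 1 in Müller cells, 4 in RGCs and 4 in ACs, and none in astrocytes or microglia. Of these 17 tests between senile and infant retinas 1 passed, SLC24A1 in rods (0.393% of the rod features were lower in the senile stage), and none passed between mature and infant or between senile and mature retinas. At an unadjusted p under 0.05 there were 1, 0 and 2 of the 17 in these comparisons.

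SLC24A1 in rods was 486, 362, 453, 400 and 434 CPM in Infancy 1 to 5. It was 489, 318, 368, 326 and 339 CPM in Mature 1 to 5, and 361, 194, 230 and 223 CPM in Senile 2 to 5. The senile and infant retinas did not overlap, but Senile 2 lay directly below Infancy 2, and the mature retinas ran from 318 to 489 CPM, with 3 of 5 below every infant retina. The senile values rest on 24, 15, 20 and 29 UMIs, against 41 to 192 in infancy.

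The fitted difference between senile and infant rods was -0.78 (log2, SE 0.18, adjusted p = 0.047, edgeR). Mature retinas differed from infant ones by -0.22 (adjusted p = 0.74, edgeR) and senile from mature ones by -0.56 (adjusted p = 0.32, edgeR). The median of the 2 members tested in rods was -0.32, against -0.02 over all features. The call was lost in 10 of 14 fits with 1 retina left out (Infancy 1, 3, 4 or 5, Mature 2, 3 or 5, or Senile 3, 4 or 5), with adjusted p from 0.054 to 0.13 and differences of -0.79 to -0.71. It was also lost with called doublets kept (-1.19, adjusted p = 0.17), with stage alone in the model (-0.85, adjusted p = 0.050), with the replicate number as a block (-0.80, adjusted p = 0.079) and within the 7.0.1 libraries (-0.99, adjusted p = 0.11). Within the 5.0.1 libraries, where Senile 2 is the only senile retina tested in rods, the difference was -0.37. SLC24A1 in rods was 412 ± 73.4 CPM in 6 libraries labelled 5.0.1 and 314 ± 88.7 CPM in 8 labelled 7.0.1.

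Markers of other classes moved with the senile rods. The summed level of the 7 cone markers in rods was 212 to 459 CPM in infancy (median 343), 228 to 474 CPM in the mature stage (median 364) and 256 to 805 CPM in the senile stage (median 701), with OPN1SW at 0. The 6 Müller cell markers summed to 21.5 to 133 CPM in infancy and 60.2 to 288 CPM in the senile stage, with CHRDL1 at 0. The rod list itself was 6289 to 11007 CPM in infancy and 5235 to 10516 CPM in the senile stage. Senile retinas held 38 to 71 rod nuclei, against 60 to 109 in infancy. The part of these in the SLC24A1 difference was not tested. The RPE list summed to 202 to 510 CPM in rods over the stages and at most 14.9 CPM in cones.

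CNGB1 in rods was 14.3, 0, 9.64, 3.70 and 2.26 CPM in infancy and 14.4, 8.16, 2.13, 0 and 3.98 CPM in the mature stage, with 0 UMIs in the 4 senile retinas. In senile rods 3 UMIs of a retina would be 23.1 to 45.2 CPM, above every value of the younger ones, so a difference was not detectable at this depth. CNGB1li1 in rods was 679, 450, 472, 452 and 488 CPM in infancy, 740, 596, 480, 446 and 569 CPM in the mature stage, and 467, 284, 449 and 385 CPM in Senile 2 to 5. The stages overlapped, and the senile difference from infancy was -0.33 (SE 0.18, adjusted p = 0.45, edgeR).

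The exchanger SLC24A2 in cones was 3623, 3247, 2966, 3104 and 3411 CPM in infancy. It was 3544, 3086, 3598, 3179 and 3622 CPM in the mature stage and 3089, 3512, 2861, 3775 and 3485 CPM in the senile stage. All 3 stages overlapped, and the senile difference from infancy was -0.04 (SE 0.11, adjusted p = 0.96, edgeR). The low cone level of SLC24A1 was 2.54 to 6.23 CPM in infancy and 3.19 to 11.7 CPM in the senile stage, a difference of 0.62 (SE 0.37, adjusted p = 0.63, edgeR). For HCN2 in BCs the senile difference was -0.08 (SE 0.21, adjusted p = 0.99, edgeR).

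**Figure D4:**
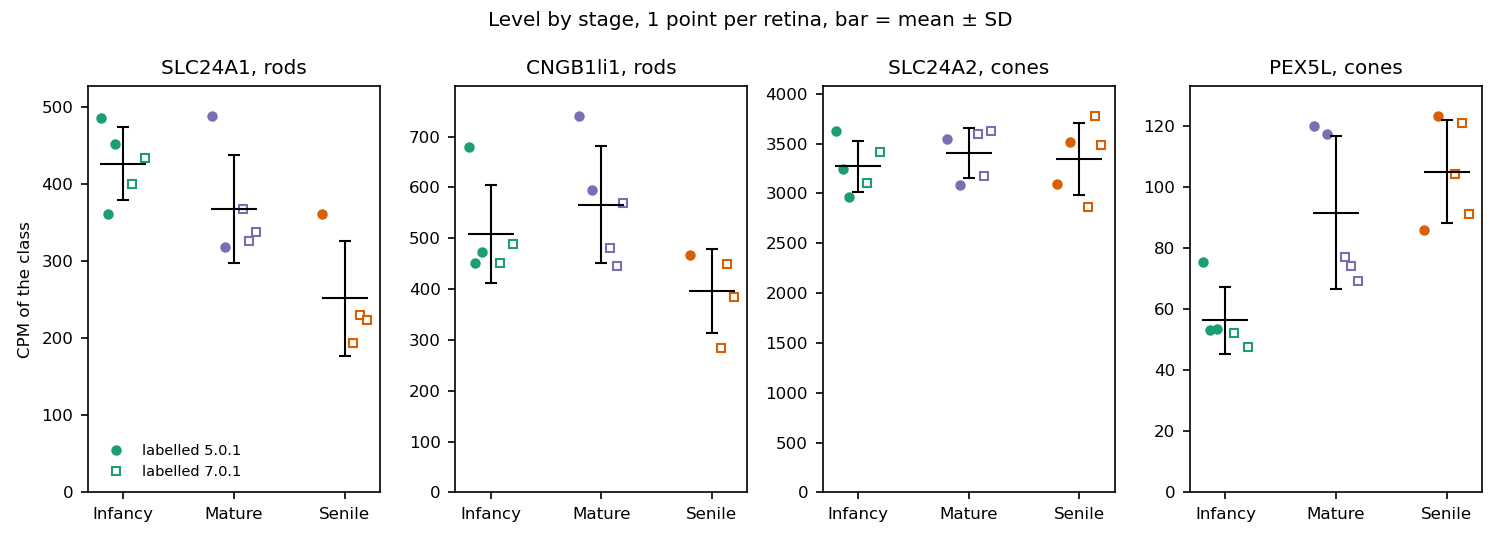
Levels by stage of SLC24A1 and CNGB1li1 in rods and of SLC24A2 and PEX5L in cones; the y axis is CPM of the class from 0, each point is 1 retina, filled circles are libraries labelled 5.0.1 and open squares those labelled 7.0.1, and bars are mean ± SD. SLC24A1 in senile rods lies at 194 to 361 CPM against 362 to 486 CPM in infancy, and SLC24A2 in cones overlaps across the stages.

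Of the related genes PEX5L alone passed between stages in any class, and it passed in cones. PEX5L in cones was 75.4, 53.1, 53.5, 52.2 and 47.5 CPM in infancy, 120, 117, 77.1, 74.3 and 69.3 CPM in the mature stage, and 85.9, 123, 104, 121 and 91.1 CPM in the senile stage. Every senile retina was above every infant one, and the mature retinas overlapped with both. In cones 1.72% of the features were higher in the senile and 1.27% in the mature stage than in infancy. PEX5L rose by 0.90 from infancy to the senile stage (SE 0.17, adjusted p = 0.0045, edgeR) and by 0.74 to the mature stage (SE 0.16, adjusted p = 0.027, edgeR). The senile call remained without any 1 retina, but was lost with nuclei gated one by one (adjusted p = 0.073) and with stage alone in the model (adjusted p = 0.058). The senile difference was 0.67 to 1.03 over the 10 alternatives that keep every retina or 1 version. The mature call was lost in 6 of 15 fits with 1 retina left out (Infancy 2 to 5, Mature 1 or Mature 2), with adjusted p from 0.058 to 0.12. The mature difference was 0.65 to 0.83 over these 15 fits.

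The rod minus cone difference of each member was compared between 4 senile and 5 infant retinas by a 2-sided exact permutation test (126 splits), adjusted over the 9 members. The smallest p this test can give is 0.0079, or 0.071 once adjusted for a single member, so no member alone could pass and the values are given as a description. The smallest p found was that of CNGB1, with -0.57 ± 0.76 in the senile stage, where rods had 0 UMIs, and 1.81 ± 1.23 in infancy (exact p = 0.024, adjusted p = 0.21). For SLC24A1 the difference was 5.14 ± 1.03 in the senile stage and 6.36 ± 0.56 in infancy (log2(CPM + 1), SD; exact p = 0.063, adjusted p = 0.29). For SLC24A2 it was -4.77 ± 1.00 and -4.95 ± 0.73 (exact p = 0.81, adjusted p = 1).

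Features with the most similar pattern were sought over 134 points, each a class in a retina, among 15358 features, by Pearson's r of log2(CPM + 1). The points share libraries and classes, so r is given as a description. For SLC24A1 these were PRSS58-AS-1 (r = 0.95), TRBV3-1 (r = 0.95) and NR2E3 (r = 0.94), a rod transcription factor and rod-list marker. For SLC24A2 they were RPL7li83 (r = 0.88), whose identifier TSDBGID.13417 follows that of SLC24A2, and 2 antisense features of SLC24A2 itself (r = 0.86 and 0.84). HCN2 was closest to ISL1 (r = 0.72), a transcription factor and ON BC marker, LINC-RPS24-13 and ANKFY1. HCN4 was closest to LINC-CDH18-10 (r = 0.81) and GABRG3 (r = 0.80), a GABA receptor subunit, and HCN3 to LINC-ASIC2-13 (r = 0.75). CNGB1 was closest to LINC-AKNAD1-1 (r = 0.76), and CNGB1li1 to LINC-NUDT12-3 (r = 0.92).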

How the data were processed

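Raw UMI counts per gene and nucleus, 1 matrix for each of 15 TS retinas, were used as deposited by the authors, without normalization. The authors had aligned the reads with Cell Ranger to TS_3.0. The labels name version 5.0.1 for 7 libraries, whose file headers give 6.1.2, and 7.0.1 for 8, while the methods give one version for all, and the labels and methods also differ in the chemistry. Whether intron reads were counted is not given in the sources used here. Stages and replicate numbers come from the sample titles; the labels name no animal or day for a retina, so p-values measure the spread between these libraries. A single feature, LINC-FRMD8-1, took 12.1% to 21.2% of the UMIs of a library.

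Of 120437 barcodes, 119765 had over 200 and under 6000 genes and under 5% mitochondrial UMIs. Doublets (7940) were called per retina from simulated doublets at 8 per 1000 for every 1000 nuclei. Nuclei were clustered on 30 components of 2000 variable genes (Harmony-type correction by retina, Leiden, 20 neighbours, seed 1), and of 203 clusters 100 were named from fixed marker lists, with thresholds set after the clusters had been seen. The others, which hold 31544 nuclei, stayed unnamed, 71 of them for over 25% called doublets and 18 for under 3 markers. Gating each nucleus by its own markers gave the same class in 96.5% of 65816 nuclei named both ways, but in 69.1% of HCs. A class entered for a retina from 10 nuclei on. The members, the lists and the tests were chosen with earlier results of these data known.

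Summed counts were tested with edgeR (TMM, filterByExpr, quasi-likelihood, Benjamini-Hochberg over all features tested, threshold 0.05), with the retina as a block between classes and with stage and labelled version between stages. The SE is the log2 fold change divided by the square root of F. Alternatives were DESeq2, no filter, doublets kept, gated nuclei, LINC-FRMD8-1 left out, stage alone, sex, a replicate block, either version alone and each retina left out. Genes named are the members, the related list (18 genes described here; some genes of the lists are not reported here), and 3 features nearest in pattern per member. In simulated data drawn from these libraries the edgeR fits found 94% of 4-fold and 73% of 2-fold changes between rods and cones (12702 genes) and 80% and 23% between stages in rods (3310 genes). The simulation changed only genes above a minimum expected count and held no effect of the version. The R packages were DESeq2 1.42.0, edgeR 4.0.16 and limma 3.58.1 under R 4.3.3, and Python 3.11.15 was used with scipy 1.17.1, igraph 0.11.9, pandas 2.3.3 and numpy 2.4.6. Sequences are not printed.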

Additional observations from a re-analysis of the deposited data

Results flagged for a closer look

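Among 48 groups of 4 or 5 retinas looked at, for levels with a mean of at least 10 CPM, 2 held a retina far from the rest, where chance alone marks about 1 group in 20. SLC24A2 in ACs was 128 CPM in Mature 3, against 77.2 to 91.7 CPM in the other mature retinas. CNGB1li1 in rods was 679 CPM in Infancy 1, against 450 to 488 CPM in the other infant retinas.

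Nuclei that received no class name were used in no comparison, and 14 levels in their clusters exceeded the highest class mean of the gene (clusters of at least 50 nuclei and 20 UMIs of the gene). For HCN4, with a highest class mean of 6.98 CPM, these were cluster 29 at 66.9 CPM, cluster 23 at 35.8 CPM, cluster 35 at 10.8 CPM, cluster 20 at 8.91 CPM and cluster 10 at 8.09 CPM. Cluster 35 had over 25% called doublets, and cluster 20 had a median of 0 CPM over 10 retinas, with 9.37 CPM as the highest. Cluster 29 held 1148 nuclei led by CDH9, SLC5A7, EBF3 and EBF2, of which SLC5A7 encodes the choline transporter of cholinergic neurons, with 0 to 208 CPM over 15 retinas and a median of 83.2. Cluster 23 held 1364 nuclei led by EBF3, CCBE1 and PROM1, with 15.2 to 127 CPM over 15 retinas. Both had under 3 markers of any class.

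HCN3 was 7.08 CPM in cluster 10 (2177 nuclei), against a highest class mean of 6.51 CPM. HCN2, with a highest class mean of 44.8 CPM, was 61.8 CPM in cluster 106, 58.9 CPM in cluster 131, 58.6 CPM in cluster 141, 54.7 CPM in clusters 153 and 107, 50.5 CPM in cluster 1, 50.2 CPM in cluster 116 and 48.0 CPM in cluster 84. Cluster 1 was the largest, with 4144 nuclei led by COL19A1, PDE11A and GABRR3 and 23.1 to 122 CPM over 15 retinas, and 5 of the 8 (106, 131, 141, 116 and 84) had over 25% called doublets.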

How the results depend on the processing

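Results of the members, their copy and antisense features and the related genes were recomputed under every alternative. The GRIK1li1 setting, added to the plan, is included, and senile against mature is left out. The recomputation gave 5606 values. Of these 5534 kept their side of the threshold, 44 lost the call, 22 gained one in the same direction, and 6 turned. A value called in neither fit counts as kept, so the 5534 do not measure how stable the calls are. In 462 values, the 6 that turned included and the rest not called, the sign differed from the reported fit. Among those turned, SLC24A4 and SLC8A3li1 in rods against cones stood at -0.54 and -0.21 with each nucleus gated by its own markers, and SLC24A4 in S-cones against L-cones at -0.023 without Senile 5 (up to 1.23 without Infancy 4). With GRIK1li1 in place of GRIK1, an alternative chosen after seeing the data, OFF BCs against ON BCs gave 0.33 for HCN2, 0.34 for ROM1 and 0.014 for SLC8A3li1. The order of the classes had 11 passing pairs, 10 with a pseudocount of 10 and 12 with CNGB1li1 in place of CNGB1, the latter also chosen after seeing the data. The stage test of the rod minus cone differences was too small for a single member to pass, so its count of 0 in each alternative, also with 1 retina left out, says nothing of stability. Of 126 class levels of the members 15 moved by more than the spread between retinas.

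In the reported fits the features called were 309 in cones, 32 in rods, 222 in BCs, 19 in HCs, 108 in Müller cells, 239 in ACs, 179 in RGCs, 42 in astrocytes and 4 in microglia (senile against infancy), and 222 in cones, 20 in rods, 160 in BCs, 8 in HCs, 62 in Müller cells, 142 in ACs, 107 in RGCs, 14 in astrocytes and 2 in microglia (mature against infancy). Counts of called features that moved by more than 1.5 times are given next, and the cause was not tested for any of them. With DESeq2 in place of edgeR the counts were 494 in cones, 85 in rods, 359 in BCs, 367 in ACs, 190 in Müller cells and 9 in microglia (senile against infancy), 412 in cones, 38 in rods, 369 in BCs, 20 in HCs, 159 in Müller cells, 371 in ACs, 180 in RGCs, 29 in astrocytes and 5 in microglia (mature against infancy), 1515 for S-cones against L-cones, 329 for senile against mature, all classes. With no filter on low counts the counts were 693 in cones, 190 in rods, 575 in BCs, 126 in HCs, 366 in Müller cells, 693 in ACs, 380 in RGCs, 103 in astrocytes and 43 in microglia (senile against infancy), 624 in cones, 113 in rods, 739 in BCs, 70 in HCs, 335 in Müller cells, 935 in ACs, 312 in RGCs, 121 in astrocytes and 21 in microglia (mature against infancy), 1314 for senile against mature, all classes. Within the libraries labelled 7.0.1 the counts were 92 in cones, 110 in BCs, 6 in HCs, 24 in Müller cells, 84 in ACs, 53 in RGCs, 0 in astrocytes and 0 in microglia (senile against infancy), 51 in cones, 3 in rods, 28 in BCs, 2 in HCs, 7 in Müller cells, 10 in ACs, 15 in RGCs, 0 in astrocytes and 0 in microglia (mature against infancy), 6 for senile against mature, all classes. With called doublets kept the counts were 80 in rods, 33 in HCs and 2 in microglia (senile against infancy), and 7 in rods (mature against infancy). With stage alone in the model the counts were 20 in rods, 157 in ACs and 69 in Müller cells (senile against infancy), 92 in BCs, 54 in ACs and 64 in RGCs (mature against infancy), 2 for senile against mature, all classes. Within the libraries labelled 5.0.1 the counts were 12 in HCs, 393 in RGCs, 45 in Müller cells and 7 in microglia (senile against infancy). They were 55 in rods, 91 in ACs, 316 in RGCs, 49 in astrocytes and 23 in microglia (mature against infancy). The count was 58 for senile against mature, all classes. Senile 2 is the only senile retina in the rod fits of this setting. The rod count for senile against infancy is therefore not given, and the rod part of the 58 is not read. With each nucleus gated by its own markers the counts were 6 in HCs and 22 in astrocytes (senile against infancy), 10 in rods, 2 in HCs and 5 in microglia (mature against infancy), 3787 for S-cones against L-cones, 4601 for OFF BCs against ON BCs, 7 for senile against mature, all classes. With sex, as the study marks it, in the model the counts were 5 in microglia (mature against infancy). Without the retina block the counts were 3146 for rods against cones, 681 for S-cones against L-cones, 735 for OFF BCs against ON BCs. With GRIK1li1 in place of GRIK1 the counts were 5763 for OFF BCs against ON BCs. With 1 retina left out at a time the counts ran from 236 to 337 in cones, 18 (without Infancy 3) to 61 (without Infancy 2) in rods, 176 to 249 in BCs, 12 (without Infancy 4) to 32 (without Mature 2) in HCs, 72 to 148 in Müller cells, 193 to 247 in ACs, 148 to 195 in RGCs, 24 (without Infancy 3) to 67 (without Mature 4) in astrocytes and 1 (without Infancy 5) to 5 in microglia (senile against infancy), 145 (without Infancy 4) to 232 in cones, 7 (without Mature 2) to 44 (without Mature 4) in rods, 81 (without Infancy 4) to 171 in BCs, 5 (without Infancy 3) to 13 (without Mature 3) in HCs, 40 (without Infancy 4) to 80 in Müller cells, 73 (without Infancy 4) to 171 in ACs, 70 (without Mature 1) to 145 in RGCs, 5 (without Mature 1) to 26 (without Mature 4) in astrocytes and 0 (without Infancy 1) to 4 (without Mature 4) in microglia (mature against infancy), 5169 to 6344 for rods against cones, 2082 to 2441 for S-cones against L-cones, 1323 to 1601 for OFF BCs against ON BCs, 7 (without Senile 5) to 32 for senile against mature, all classes.

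Depth limits the rods, with 998 nuclei and as few as 66434 UMIs per retina, and the S-cones and OFF BCs, with as few as 41424 and 43298. In simulated data the stage fit in rods (3310 genes) found 80% of 4-fold changes and 23% of 2-fold changes. Of 2-fold changes the fits found 28% in RGCs, 31% in ACs, 33% in Müller cells, 41% in cones, 43% in HCs and 47% in BCs. Of 4-fold changes these classes had from 77% (RGCs) to 88% (cones). Stage tests that missed the threshold in rods or in these classes thus leave 2-fold and some 4-fold changes undecided. Only genes above a minimum expected count were changed, so genes with few UMIs, CNGB1 among them, are not covered. Retinas of different stages with the same replicate number deviated together more than others did, with median correlations of 0.242 in cones, 0.206 in BCs and 0.297 in ACs, against -0.120, -0.161 and -0.209 for different numbers. In each class 11 of 15 same-number pairs were above 0.1, and 5, 4 and 4 of 15 libraries correlated best with their own number. Numbers 1 and 2 are labelled 5.0.1 in every stage, and numbers 4 and 5 are labelled 7.0.1. Sex, as the study marks it, also goes with the number. The version was not removed before these correlations, and the part of version or sex in them was not tested. Since not every pair was above 0.1 and the labels tie the numbers to no animal or day, they were not taken as a pairing. With the replicate block the call of SLC24A1 in senile rods was lost (-0.80, adjusted p = 0.079, edgeR), and the counts of called features that moved were 32 in HCs and 8 in microglia (senile against infancy), 97 in BCs and 67 in ACs (mature against infancy), 8 for senile against mature, all classes.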
